A study of Bos taurus with 8 samples.

Results

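Cytosolic ribosomal proteins were followed in granulocytes from cow blood, as the messenger RNAs of 66 genes measured on 74 probes. They were taken from 6018 genes named on 15208 probes by their symbols: RPL or RPS with a number, the stalk proteins RPLP0, RPLP1 and RPLP2, and RPSA. Kinases of the RPS6K family were left out. The large, 60S subunit had 38 members and the small, 40S subunit had 28. Each gene was represented by its brightest probe; 58 members had 1 probe and 8 had 2.

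The samples came from 4 cows, each of which gave blood on day 7 of its oestrous cycle, not pregnant and before an embryo was transferred, and again on day 21, pregnant after the transfer. The labels name no other treatment and no breed or age. Amplified, Cy3-labelled RNA of each sample was hybridised to a single-colour Agilent array. Every cow was sampled on day 7 first, so day, pregnancy and transfer cannot be told apart. Cows 3 and 4 each had both of their arrays on a slide of their own (slides 3 and 4); slide 1 held both arrays of cow 1 and the day 7 array of cow 2, and slide 2 held the day 21 array of cow 2.

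Every ribosome is built from ribosomal RNA and a nearly fixed set of these proteins: the 40S subunit reads the messenger RNA and the 60S subunit joins the amino acids. Their messenger RNAs are among the most abundant in most cells and share a pyrimidine-rich start, through which their translation is controlled together by the mTOR pathway and LARP1. Mature neutrophils, the main granulocyte of blood, leave the bone marrow with much of their protein already made and stored in granules. Ribosomal protein genes have many near-identical processed copies in mammalian genomes, so a probe may also bind RNA from such copies, which was not tested.

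The probes that the results below turn on are 60 bases long and are given as the array files list them, 5′ to 3′. RPLP0 is shown because its probes gave different changes, RPS27 and its paralogue RPS27L because RPS27 differed from the other members in cows 3 and 4, and RPL7, RPL24 and RPL30 because spots under different names carried the same sequence. The RPL7 twin spot is a probe with no gene symbol here.
RPLP0 probe A: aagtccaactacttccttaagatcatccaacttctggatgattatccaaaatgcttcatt
RPLP0 probe B: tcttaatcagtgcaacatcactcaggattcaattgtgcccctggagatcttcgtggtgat
RPS27: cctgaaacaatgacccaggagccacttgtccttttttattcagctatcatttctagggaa
RPS27L: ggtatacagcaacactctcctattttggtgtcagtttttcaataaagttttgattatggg
RPL7: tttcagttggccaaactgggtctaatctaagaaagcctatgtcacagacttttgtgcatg
RPL7 twin spot: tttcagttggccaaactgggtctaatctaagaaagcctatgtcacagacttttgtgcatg
RPL24: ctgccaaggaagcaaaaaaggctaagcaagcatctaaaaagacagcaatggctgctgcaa
RPL30 probe B: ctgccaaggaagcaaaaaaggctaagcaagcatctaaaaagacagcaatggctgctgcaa
The probes of RPS10 share all but 2 of their 60 bases, and their last 30 bases are shown with the differing bases in capitals (T58A and T59A, from probe B to probe A, counted from 1 at the 5′ end).
RPS10 probe A: gttgaaagggattgttttgtgttgaatAAa
RPS10 probe B: gttgaaagggattgttttgtgttgaatTTa
The strand of a probe relative to its messenger RNA was not checked, and no positions are given, because the sources used here name no genome build for the array.

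A normalised value is log2 of the processed spot intensity minus log2 of the 75th percentile of that array, so 0 is the level of the 75th percentile and 1 unit is a doubling; it is compared only within a probe. A change is the day 21 mean minus the day 7 mean. Between the days, 65 members were tested with limma, in a fit over the 10459 probes that 4 or more of the 8 arrays had measured well above background. RPL13, of the 60S subunit, was the member left out, since its probe was well above background on 1 of 8 arrays; just inside the filter were RPL3L, on 6 arrays, and RPL9, on 7. The other 63 members were well above background on all 8 arrays. The array software had marked 8 member spots as outliers, and these were dropped; 6 were on the day 21 array of cow 2 (RPLP1, RPL5, RPL19, RPL36A, RPS19 and RPS21), so the fits of these genes have 3 values on day 21.

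No ribosomal protein passed the test between day 7 and day 21: 0 of 65 members had an adjusted p under 0.05 in limma (Benjamini-Hochberg over all tested probes), the smallest being 0.505, against a background of 0% of probes higher and 0% lower. At an unadjusted p under 0.05, 1 member was higher (RPLP0) and 0 were lower, where 4.92% of all tested probes were higher and 4.55% lower, 9.48% in all. With cow as a replicate block that count of members was 2, beside 19.0% of probes in that fit, and a fixed block for slide left 0, beside 11.2%. The median change of the members was 0.15 on the log2 scale, or 1.11-fold, beside 0.07 over all tested probes. It was 0.10 over all tested genes, each by its brightest probe. Over the brightest 10% of tested probes, which hold 48 of the members, it was 0.12. By sign alone, 42 members were above 0 and 23 below, against 55.0% of probes above 0. The median rested on single arrays: it was -0.15, with 22 members above 0, without the day 21 array of cow 3, and -0.07, with 29, without the day 7 array of cow 2. Without the day 21 array of cow 1 or the day 7 array of cow 3 it was 0.36. In this bulk RNA, fewer cells of a type and less RNA per cell cannot be told apart.

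The changes of the members were mostly small. Of the 65, 53 differed by under 0.5 on the log2 scale, and the quartiles of the members were -0.06 and 0.36, inside those of all probes (-0.35 and 0.46). The median standard error (SE) of a member's change was 0.526, beside 0.454 over all probes. Changes over 1 in size belonged to 4 members: RPL9 (1.63 ± 1.68 SE), RPLP0 (1.39 ± 0.57), RPL24 (-1.03 ± 1.13) and RPL17 (-1.21 ± 1.10).

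**Figure D1:**
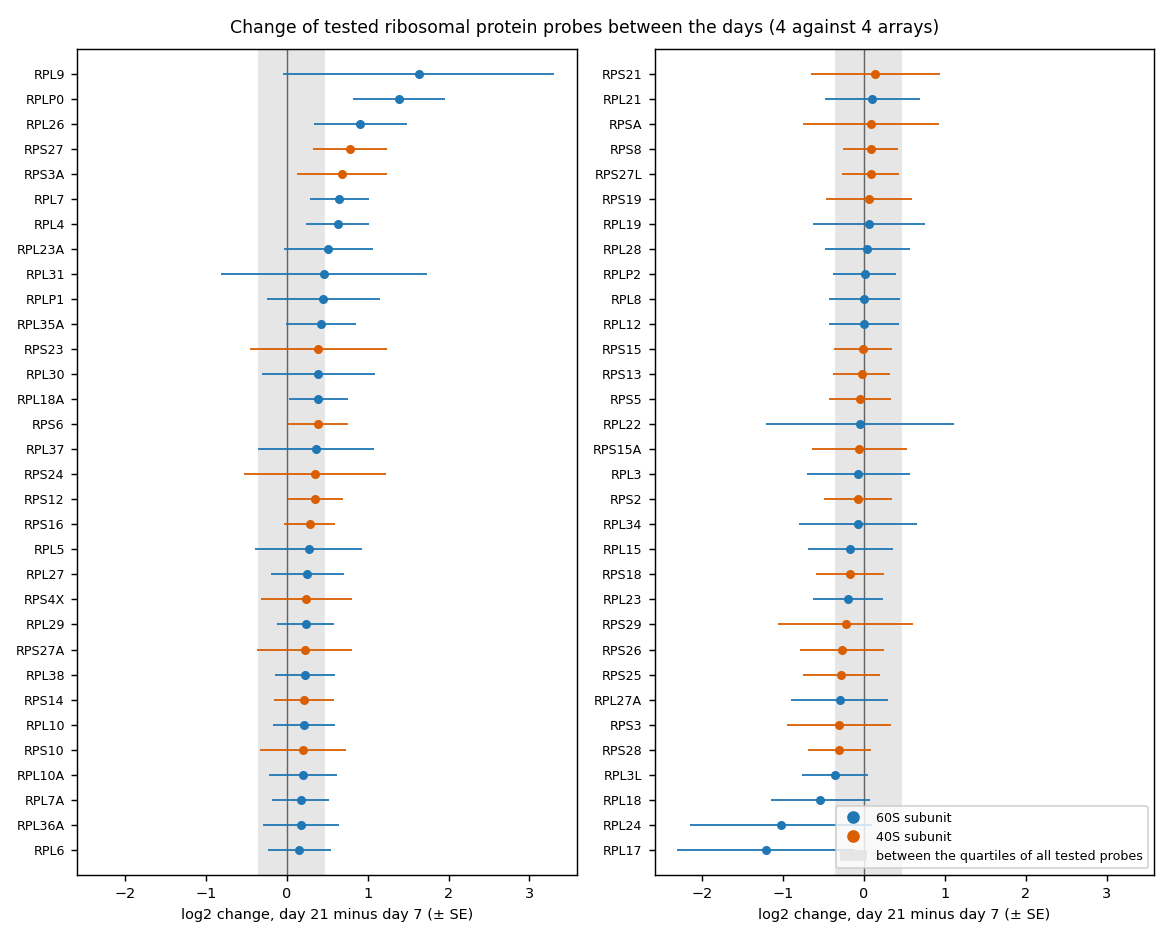
The log2 change from day 7 to day 21 (x axis) is drawn for 64 of the 65 tested members with its SE, from the highest (top of the left panel) to the lowest (bottom of the right panel); the grey band runs between the quartiles of all tested probes, -0.35 and 0.46. Most members lie inside the band, RPL9 (1.63) and RPLP0 (1.39) are the highest, and RPL24 (-1.03) and RPL17 (-1.21) are the lowest.

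The stalk of the 60S subunit recruits the elongation factors to the ribosome and consists of RPLP0, which anchors it, and RPLP1 and RPLP2. RPLP0 probe A read -2.35, -0.64, 0.35 and 0.06 on day 7 and 0.05, 1.08, 0.99 and 0.88 on day 21 in cows 1, 2, 3 and 4. It was higher on day 21 in every cow, by 2.40, 1.72, 0.64 and 0.82, and its groups overlapped because cow 1 on day 21 was below cow 3 and cow 4 on day 7. The change of 1.39 ± 0.57 had an unadjusted p of 0.0345 and an adjusted p of 0.505 in limma. The second probe under this symbol, RPLP0 probe B, read below the 75th percentile on every array. The strand was checked for neither probe, so neither is known here to read the RPLP0 message. The values of probe B were -1.89, -2.97, -3.35 and -2.77 on day 7 and -3.46, -2.53, -3.29 and -1.84 on day 21, a change of -0.04 ± 0.47. With the probes of each gene averaged, RPLP0 was at 0.68 and no member had an unadjusted p under 0.05 in limma. That average carries the same doubt about both probes.

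RPLP1 read 3.62, 2.32, 4.83 and 3.74 on day 7 and, with the day 21 spot of cow 2 dropped, 2.80, 5.17 and 4.25 on day 21 in cows 1, 3 and 4, a change of 0.45 ± 0.70. RPLP2 read 7.63, 6.62, 7.46 and 6.82 on day 7 and 6.60, 7.08, 7.77 and 7.10 on day 21, a change of 0.01 ± 0.39. Both were lower on day 21 in cow 1, by 0.81 for RPLP1 and 1.03 for RPLP2, while RPLP0 probe A was higher there. The sign of RPLP2's change turned under other scalings of the arrays (-0.15 with quantile normalization).

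RPL5, RPL23 and RPL26 belong to the group of 60S proteins that bind MDM2, the ubiquitin ligase of p53, when ribosome assembly is disturbed; RPL5 also carries the 5S ribosomal RNA. As for every member probe, whether the RPL26 probe reads the RPL26 message was not checked. It read -1.55, -1.24, -0.16 and 0.09 on day 7 and -0.98, 1.42, -0.04 and 0.38 on day 21. Most of its change of 0.91 ± 0.57 (adjusted p = 0.643 in limma) came from cow 2, where it was 2.67 higher on day 21, with differences of 0.12 to 0.58 in the other cows. RPL5 changed by 0.27 ± 0.66 over 4 and 3 arrays. RPL23, with a change of -0.20 ± 0.43, was lower on day 21 in cows 1 and 2 (-0.92 and -0.53) and higher in cows 3 and 4 (0.28 and 0.36).

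Proteins around the exit tunnel, through which the new chain leaves the 60S subunit, had 8 tested members, 6 above 0 and 2 below, with a median of 0.34 and none past the test. RPL4, whose long loop lines the tunnel, was 3.50, 3.33, 4.17 and 4.11 on day 7 and 3.63, 4.80, 4.63 and 4.54 on day 21. It was higher in all 4 cows and its groups overlapped through cow 1, with a change of 0.63 ± 0.39 and an adjusted p of 0.643 in limma. RPL17 sits beside the tunnel exit. Its probe read 4.69, 3.46, 6.18 and 4.32 on day 7 and 2.94, 0.35, 6.46 and 4.07 on day 21, with the lowest value of the 8 on the day 21 array of cow 2. Leaving out that array and the day 7 array of cow 1 brought RPL17 from -1.21 to -0.16.

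In the 40S subunit, the head and the channel that holds the messenger RNA had 12 tested members, 4 above 0 and 8 below, with a median of -0.07. RPS3, which guards the entry of the channel and has DNA repair roles outside the ribosome, was 4.49, 3.83, 5.28 and 4.21 on day 7 and 3.83, 2.46, 5.67 and 4.61 on day 21, a change of -0.31 ± 0.64. RPS28 (-0.31 ± 0.39) and RPS25 (-0.28 ± 0.48), both head proteins, were likewise lower on day 21 in cows 1 and 2 and higher in cows 3 and 4. RPS28's second probe had a change of 0.05 ± 0.41. RPS19, the member most often mutated in Diamond-Blackfan anaemia, an inherited failure of red cell production, had a change of 0.06 ± 0.53. The 16 tested genes linked to that anaemia had 9 changes above 0 and 7 below, with a median of 0.13.

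Other small-subunit members included RPS6, the substrate of the S6 kinases by which mTOR activity is often read. RPS6 was 4.72, 4.58, 5.46 and 5.11 on day 7 and 4.60, 5.61, 5.75 and 5.45 on day 21, a change of 0.38 ± 0.38. RPS27A, made as a fusion to ubiquitin, changed by 0.22 ± 0.59, RPSA, also known as a laminin receptor, by 0.09 ± 0.84, and RPS4X, encoded on the X chromosome, by 0.24 ± 0.56. In the large subunit, RPL10, which completes the catalytic region late in assembly, changed by 0.21 ± 0.38, RPL22 by -0.05 ± 1.16 and RPL18 by -0.54 ± 0.61. RPL3L, a copy of RPL3 found mainly in striated muscle, was near the filter and changed by -0.36 ± 0.41.

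**Figure D2:**
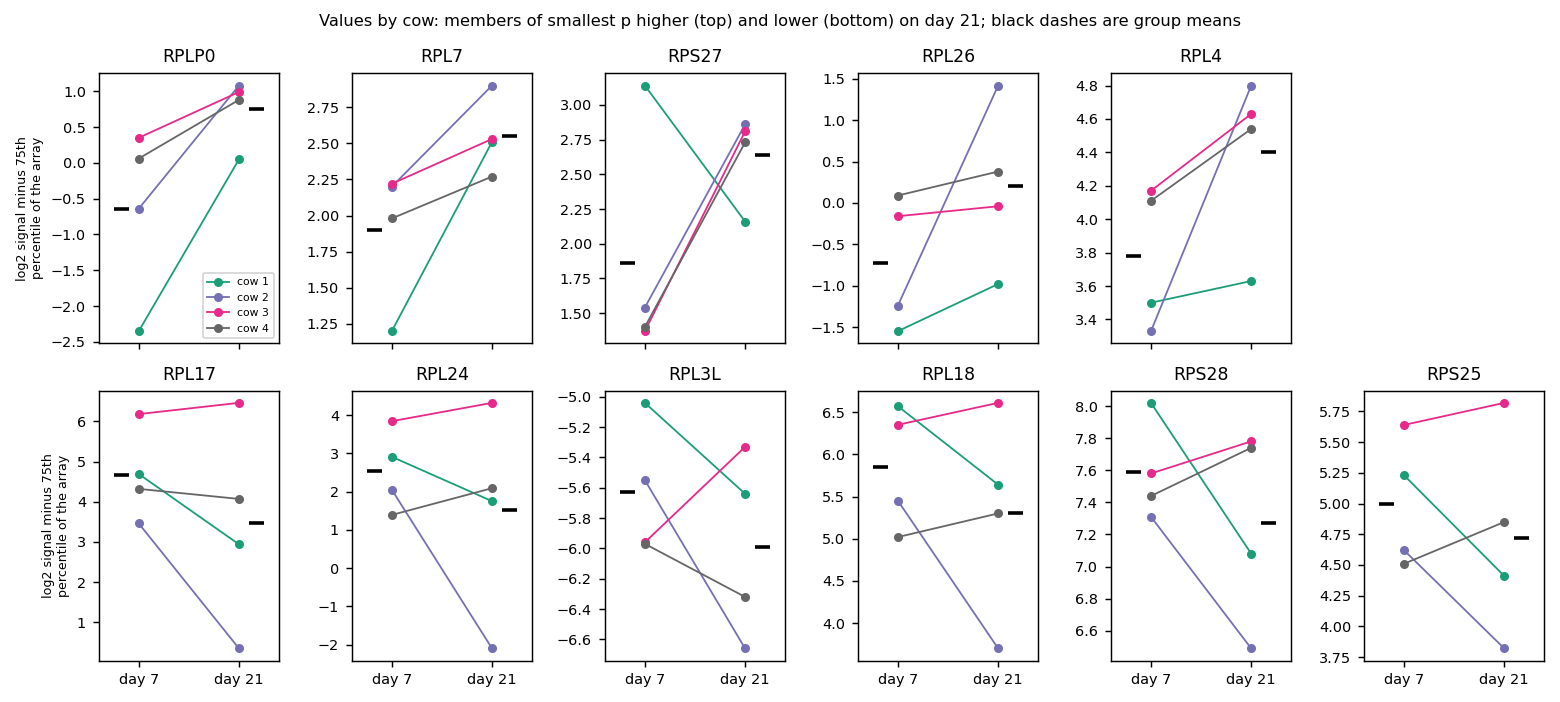
Normalised values (y axis, log2 scale relative to the 75th percentile, with its own range in each panel) on day 7 and day 21, with a line per cow, for members of smallest p above 0 (top row) and below 0 (bottom row); black dashes mark group means. RPLP0, RPL7, RPL26 and RPL4 have 4 lines going up, RPS27 has 3 up and cow 1 down, and no member of the bottom row has 4 lines going down.

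Both subunits gave similar figures: 25 of 37 tested large-subunit members were above 0, with a median of 0.17, and 17 of 28 small-subunit members, with a median of 0.09. Among the 57 members measured in both samples of all 4 cows, 14 were higher on day 21 in every cow, beside 15.5% of all probes, and 0 were lower in every cow, beside 14.3%. Among those 14 were RPL4, RPL7, RPL7A, RPL9, RPL23A, RPL26, RPL27, RPL30, RPL35A, RPL38, RPLP0, RPS10 and RPS16. Groups that did not overlap were seen for 1 member, RPL7, where 3.01% of probes lay wholly above and 2.64% wholly below.

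The cows differed in direction. Within cow 1 the median member was 0.65 lower on day 21 (median difference -0.65), with 17 of 64 members higher, beside 44.1% of all probes. Cow 2 had a median of 0.39 and 38 of 59 members higher, beside 55.1% of probes. Nearly every member was higher in cow 3, 64 of 65 with a median of 0.27, and in cow 4, 60 of 64 with a median of 0.32, beside 54.7% and 54.1% of probes. Of 64 members measured in both of these cows, 59 were higher in both, beside 45.1% of probes. Of the 57 members measured in both samples of all 4 cows, 20 were lower in cow 1 and higher in the other 3 cows. The share of all probes with this pattern was not counted. Among the brightest 10% of tested probes, 31.0%, 58.2%, 69.2% and 69.3% were higher in cows 1 to 4.

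In cows 3 and 4 the members moved by nearly the same amount. The quartiles of the member differences were 0.21 and 0.33 in cow 3, an interquartile range of 0.12, and 0.24 and 0.45 in cow 4, a range of 0.20 from unrounded values. All tested probes had interquartile ranges of 0.82 and 0.98 in these cows, and the brightest 10% of them (1046 probes, which includes 48 members) 0.62 and 0.72. In cow 1 the members spread over 0.95, equal to the brightest 10%, and in cow 2 over 1.44, beside 1.23. The spread of differences of bright probes was thus narrower among ribosomal proteins in cows 3 and 4, a description with no test.

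The near-uniform direction and the size of that shift depended on how the arrays were scaled. With quantile normalization 36 of 65 members were higher in cow 3 and 44 of 64 in cow 4, beside 52.1% and 51.5% of probes, and with cyclic loess 56 and 37, beside 54.5% and 50.6%. The brightest 10% of all probes had medians of -0.38, 0.19, 0.23 and 0.25 in cows 1 to 4, in the same direction as the members in each cow. With quantile normalization the member medians became -0.13, -0.10, 0.03 and 0.11, so that cow 2 changed direction and cows 1, 3 and 4 came closer to 0, and the brightest 10% had -0.08, -0.02, 0.03 and 0.00. The narrow spread was less tied to the scaling, at 0.19 in cow 3 and 0.32 in cow 4 with quantile normalization, beside 0.53 and 0.70 in the brightest 10%.

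**Figure D3:**
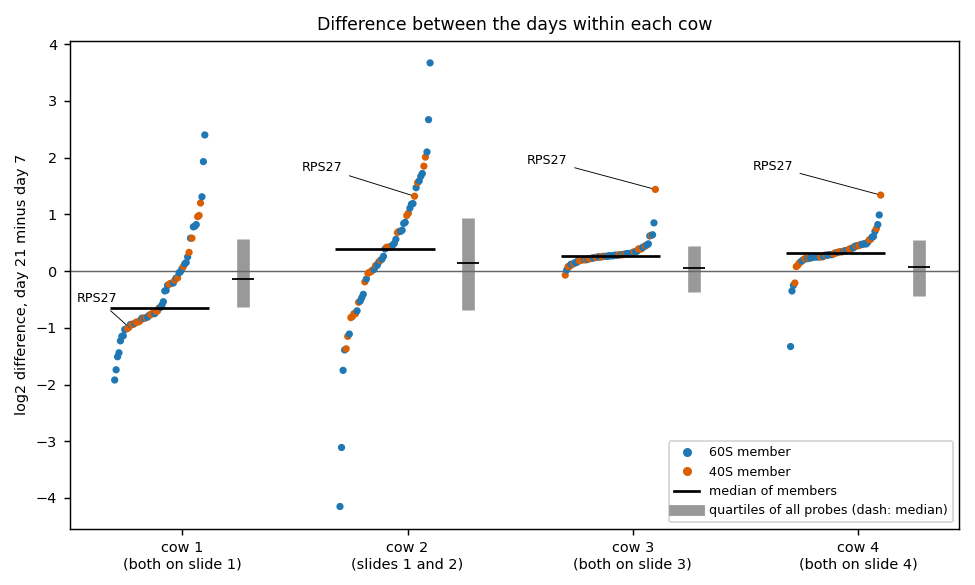
Each point is a tested member's log2 difference, day 21 minus day 7 (y axis), within a cow (x axis), in rising order; black lines are member medians (-0.65, 0.39, 0.27 and 0.32), and grey bars with a dash are the quartiles and median of all tested probes. Points run nearly flat in cows 3 and 4 and steeply in cows 1 and 2, and RPS27 is the highest member in cows 3 and 4.

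RPS27, a zinc-finger protein of the 40S subunit, was the largest difference of any member in both cow 3 and cow 4. It read 3.14, 1.54, 1.37 and 1.40 on day 7 and 2.16, 2.86, 2.81 and 2.73 on day 21. Cows 2, 3 and 4 were higher on day 21 by 1.32, 1.44 and 1.34, while cow 1, whose day 7 array stood far above the other day 7 arrays, was lower by 0.99. The next highest members were RPL3 in cow 3 (0.85) and RPL12 in cow 4 (0.99). Over all arrays RPS27 changed by 0.78 ± 0.46, with an adjusted p of 0.635 in limma. With arrays weighted by their quality it was called, at 1.23 and an adjusted p of 0.0108 in limma, in a fit that called 16.2% of all probes. Those weights were 0.291 and 0.294 for the arrays of cow 1, the cow that went the other way, and 3.25 and 6.93 for those of cow 4. Without the day 7 array of cow 1 and the day 21 array of cow 2 it was 1.13, with an adjusted p of 0.485.

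RPS27L, a p53 target that closely resembles RPS27 as a protein, was measured by a probe of another sequence. Its values were 2.19, 1.34, 1.37 and 1.26 on day 7 and 1.29, 1.76, 1.63 and 1.83 on day 21, a change of 0.08 ± 0.35. Like RPS27, RPS27L was highest on the day 7 array of cow 1, lower there on day 21 by 0.90, and higher on day 21 in cows 2, 3 and 4, by 0.42, 0.25 and 0.56. The symbol of the RPS27 probe comes from a gene identifier whose deposited description calls it similar to human RPS27.

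Member levels also differed between the cows. Over the 57 members with 8 values, the median range of the 4 cow means was 1.28, beside 1.16 for all probes, and the median size of the day change was 0.23 for all 65 members, beside 0.41. The range spans 4 means of 2 arrays each, and the day change is a difference of 2 means of up to 4 arrays. These are unlike measures, so each is read only beside its value for all probes. On the day 21 array of cow 3, 54 of 57 members were above their own 8-array mean, and on the day 7 array of cow 3, 49 were. On the day 7 array of cow 2 that number was 3, and on the day 21 array of cow 1 it was 6.

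RPL9 and RPL31, both proteins of the 60S subunit, had the widest differences between cows. RPL9 was -6.64, -4.89, 1.13 and -1.27 on day 7 and -4.72, -1.22, 1.47 and -0.67 on day 21 in cows 1 to 4. Its probe was well above background on only 3 of the 4 day 7 arrays, so its lowest values are near the limit of measurement. RPL31 was -1.17, -0.61, 3.77 and 1.83 on day 7 and -1.52, 1.06, 4.06 and 2.08 on day 21. In both genes cow 3 was highest on both days and cow 1 was low on both days. Their changes between days, 1.63 ± 1.68 for RPL9 and 0.46 ± 1.27 for RPL31, were smaller than their SE. That SE comes from the unpaired fit and includes the spread between cows. Within cows 1 to 4, RPL9 was higher on day 21 by 1.93, 3.67, 0.34 and 0.60. RPL31 differed by -0.35, 1.67, 0.29 and 0.25.

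**Figure D4:**
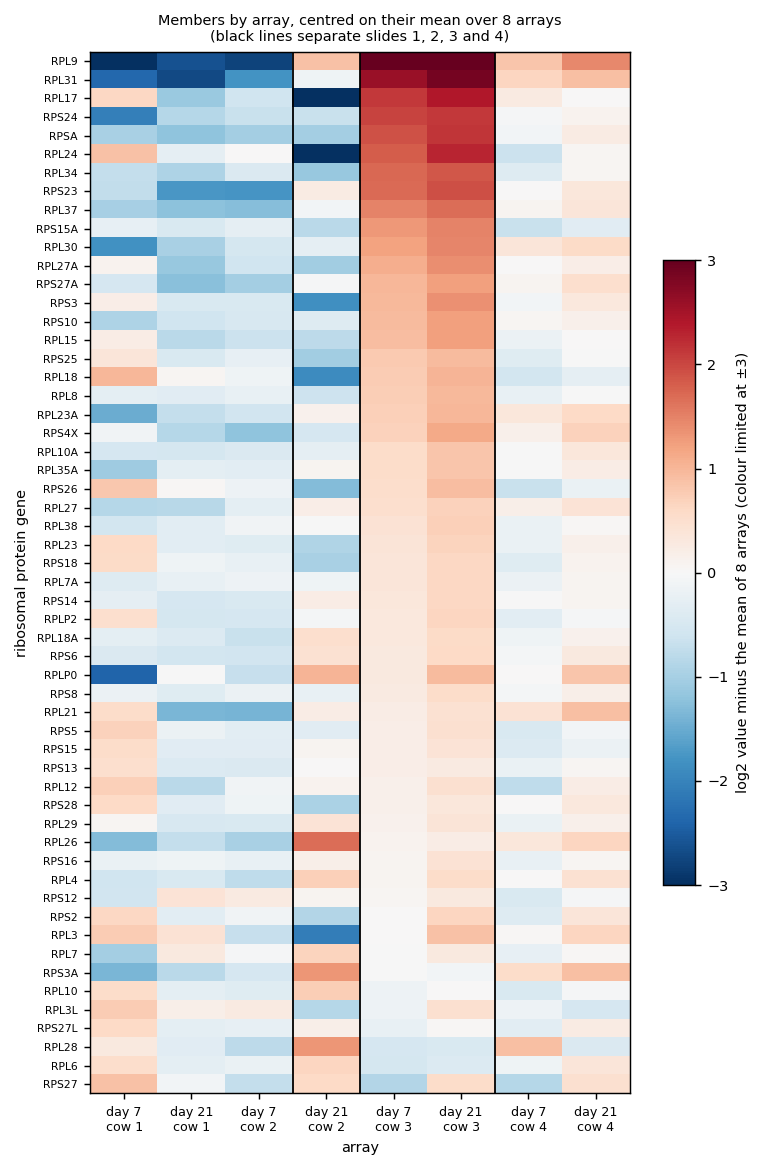
Rows are 56 of the 57 members with 8 values, ordered by the day 7 array of cow 3, and columns are the arrays; colour gives the log2 value minus the member's mean over the 8 arrays, limited at 3 in either direction, and black lines separate the slides. Both arrays of cow 3 are above the mean for most members (49 and 54 of 57), the day 7 array of cow 2 and the day 21 array of cow 1 are below it for most, and the day 7 array of cow 1 and the day 21 array of cow 2 are mixed.

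The pattern over members was shared by arrays on a slide. With each member centred on its mean, the arrays of cow 3 correlated at 0.96 across the 57 members, those of cow 4 at 0.57 and those of cow 1 at 0.56. The arrays of cow 2, on separate slides, correlated at -0.25. The day 7 array of cow 2 correlated at 0.83 with the day 21 array of cow 1, on the same slide. That day 7 array correlated at -0.56 to -0.68 with the arrays of cows 3 and 4, lower than with its own cow. The day 21 array of cow 2 correlated at 0.30 and 0.28 with the arrays of cow 4, higher than with its own cow. Centring on the mean over arrays by itself lowers the correlations between arrays. These are descriptions across genes, which are not independent replicates. Slides and scan sessions coincided, so slide and session cannot be told apart, and for cows 3 and 4 neither can be told apart from the cow. Within slide 1, the day 21 array of cow 1 was set against the mean of the day 7 arrays of cows 1 and 2. The median member difference was -0.25, beside 0.03 over all tested probes, with 18 of 65 members higher. That comparison mixes cow with day. Slides 3 and 4 each hold 1 cow, with the values given above.

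The base composition of the probes moved with the same pattern. Probes of the 57 members with 8 values held 35.0% to 55.0% G and C. Across these members, that share correlated with the deviation on an array at 0.49, 0.39 and 0.43 on the arrays of slide 1, at -0.05 on slide 2, and at -0.29 to -0.51 on the arrays of cows 3 and 4. Over all probes with 8 values the same correlations were 0.18 to 0.28 on slide 1, -0.09 on slide 2 and -0.13 to -0.28 on cows 3 and 4. Its part in the differences between cows was not tested. Across arrays, pairs of members had a median correlation of 0.46, with 47.1% of pairs above 0.5, beside 0.01 and 17.9% for pairs of all tested probes, over 8 arrays that share cows and slides.

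Some member probes shared their sequence with another spot of the same array. RPL24, of the 60S subunit, read 2.91, 2.05, 3.84 and 1.39 on day 7 and 1.75, -2.10, 4.32 and 2.09 on day 21. RPL30 probe B has the same 60 bases, and it read 1.98, 1.86, 3.86 and 1.75 on day 7 and 1.83, 0.94, 4.20 and 2.39 on day 21. The spots differed by -3.04 on the day 21 array of cow 2 and by 0.93 on the day 7 array of cow 1, and by no more than 0.35 on the other 6 arrays. From one spot the change was -1.03 ± 1.13 and from the other -0.02 ± 0.71. RPL30's brightest probe, which has another sequence, had a change of 0.39 ± 0.70.

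RPL7, a 60S protein that binds ribosomal RNA, was the member whose groups did not overlap. Its probe read 1.20, 2.20, 2.22 and 1.98 on day 7 and 2.51, 2.90, 2.53 and 2.27 on day 21, a change of 0.65 ± 0.36 (adjusted p = 0.609 in limma). The twin spot with the same sequence read 2.92, 2.01, 2.14 and 1.68 on day 7 and 2.46, 2.61, 2.44 and 2.18 on day 21, a change of 0.23 ± 0.36. The twin was 1.73 above the named spot on the day 7 array of cow 1 and within 0.29 of it on the other 7, and its groups overlapped. RPS13, whose probe also has an unnamed twin, agreed within 0.25 on every array, with changes of -0.03 ± 0.35 and 0.07 ± 0.36. The second, dimmer probe of RPS15A carries the same bases as a probe named PRXL2C, and these spots differed by 2.18, 1.37 and 0.76 in size on the day 7 arrays of cows 1, 3 and 4 and by at most 0.19 elsewhere.

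Over the whole array, 64 pairs of spots shared a sequence. Their median difference in size was 0.56 on the day 7 array of cow 1 and 0.41, over 62 pairs, on the day 21 array of cow 2, beside 0.15 to 0.19 on the other 6 arrays. Leaving out these 2 arrays, a choice made after seeing the data, gave 59 of 65 members above 0, beside 56.0% of probes, and a median of 0.18, beside 0.08 over all probes. That fit kept both arrays of cows 3 and 4, and otherwise only the day 7 array of cow 2 and the day 21 array of cow 1. Within cows 3 and 4, 64 of 65 and 60 of 64 members were already higher on day 21. With quantile normalization those counts were 36 of 65 and 44 of 64. Whether the 59 of 65 depends on the scaling in the same way was not tested. Without these 2 arrays, 0 members were called in limma and 2 had an unadjusted p under 0.05, beside 8.13% of probes. RPL24 then had a change of 0.30, RPL18 of 0.24, RPS3 of 0.26 and RPS28 of 0.09, where each had been below 0. RPLP0 probe A went from 1.39 to 0.72 and RPL7 from 0.65 to 0.31.

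**Figure D5:**
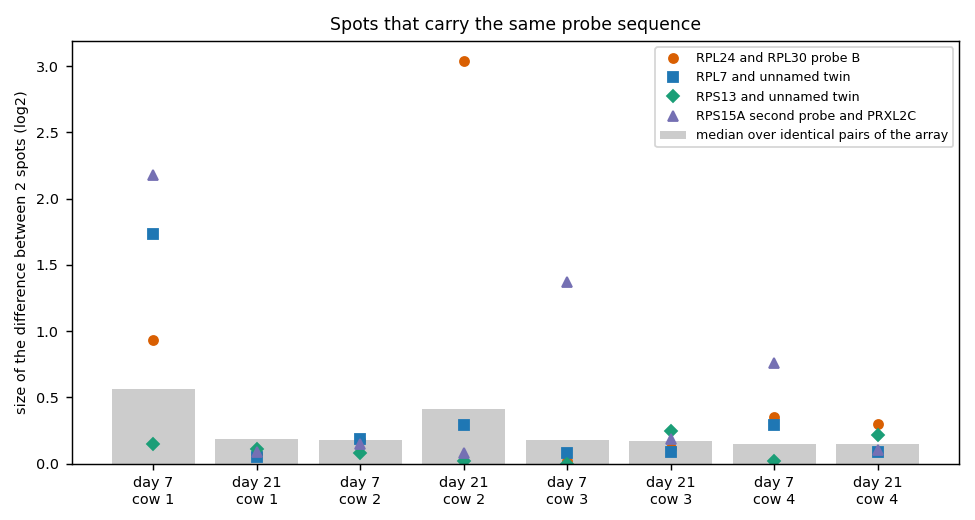
The size of the log2 difference between 2 spots with the same sequence (y axis) is shown on each array (x axis) for 4 pairs that involve a member, as points, with the median over all such pairs of the array as a grey bar from 0. The bars are highest on the day 7 array of cow 1 (0.56) and the day 21 array of cow 2 (0.41), and RPL24 with RPL30 probe B reaches 3.04 on the latter.

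Of the 8 members with a second probe, RPLP0, RPL30, RPS10, RPS15A and RPS28 had changes of opposite sign on the probes that carry their symbols, and RPL8 had 0.00 and -0.21. Of these second probes, that of RPL30 has the sequence of RPL24's probe, that of RPS15A has the sequence of PRXL2C's, and that of RPLP0 has the doubt given above, so these 3 cannot be read as a gene disagreeing with itself. RPS10, a protein of the 40S head, had 5.55, 5.98, 7.43 and 6.53 on day 7 and 5.88, 6.08, 7.70 and 6.62 on day 21 from probe A, a change of 0.20 ± 0.53. Probe B, which differs by 2 bases, read 6.12, 5.99, 7.39 and 6.77 and then 5.77, 4.89, 7.67 and 6.92, a change of -0.25 ± 0.60. Within cow 2, probe A was 0.10 higher on day 21 and probe B 1.09 lower (difference -1.09), while in cow 3 both were higher, by 0.26 and 0.28. RPL10A and RPS12 kept a positive sign on both probes, with 0.20 and 0.64 for RPL10A and 0.35 and 0.33 for RPS12. The similar means of RPS12 hide different values within cows. In cows 1 to 4 its brightest probe differed between days by 0.98, -0.19, 0.22 and 0.40, and its second probe by -0.56, 1.60, -0.11 and 0.39. Only in cow 4 did both go the same way. Whether that second probe reads the RPS12 message was not checked.

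Other genes of the ribosome and its supply were read from lists and had no call either. Ribosomal proteins that the symbol rule misses had 3 tested genes, all above 0, among them FAU (0.49 ± 0.46), which carries the 40S protein eS30 fused to a ubiquitin-like part, and RACK1 (0.26 ± 0.35), a signalling scaffold on the 40S head. Ribosome assembly factors had 24 of 33 tested genes above 0, with a median of 0.28. In limma, 3 of the 33 were higher at an unadjusted p under 0.05 and 0 were lower. Of all tested probes, 4.92% were higher and 4.55% lower at that threshold. The assembly genes of smallest p were RSL1D1 (1.35 ± 0.57, adjusted p = 0.509), a nucleolar protein, and GAR1 (1.02 ± 0.43, adjusted p = 0.509), which serves pseudouridylation of ribosomal RNA.

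Elongation factors and other messages with a pyrimidine-rich start had 12 of 15 tested genes above 0 and a median of 0.24, with EIF3M (0.78 ± 0.55) and NACA (1.56 ± 1.31) the smallest p. Regulators of ribosomal protein synthesis had 3 of 7 above 0 and a median of -0.08: RHEB, the activator of mTOR complex 1, had 1.06 ± 0.38 (unadjusted p = 0.0181, adjusted p = 0.490 in limma) and RPS6KB1, an S6 kinase, -1.25 ± 0.63. Mitochondrial ribosomal proteins, which build the separate ribosome of mitochondria, had 24 of 43 above 0 and a median of 0.08. Among them MRPL19 (-1.22 ± 0.42) and MRPL1 (1.23 ± 0.43) went opposite ways. The mitochondrial set had medians of -0.04, -0.26, 0.23 and 0.17 in cows 1 to 4.

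The cell makeup of the samples was read from marker genes. Neutrophil markers were present on every array, with a median level over 16 tested genes of 2.70 to 3.28 on day 7 and 2.18 to 2.66 on day 21; 2 were above 0 and 14 below, with a median change of -0.35. Monocyte markers had 6 of 7 above 0 and a median of 0.65, with median levels of 0.19 to 0.76 on day 7 and 1.04 to 1.90 on day 21, CD14 at 1.59 ± 0.45 (adjusted p = 0.392 in limma). Granule genes of immature neutrophils had 3 of 10 above 0 and 7 below, 2 of these at an unadjusted p under 0.05, with a median of -1.05. The platelet markers tested were P2RY12, at -2.46 ± 0.45 (unadjusted p = 0.000232, adjusted p = 0.285 in limma), and ITGA2B, at 0.09 ± 0.52. T cell markers had 3 of 10 above 0 and B cell markers 4 of 5, and the haemoglobin probes HBA and HBB and the T cell marker CD4 did not pass the filter on dim probes. Cell cycle genes had 12 of 12 above 0, with a median of 0.84. No marker passed the adjusted test, and their part in the ribosomal protein values was not tested.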

How the data were processed

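RNA of 8 granulocyte samples (4 cows, 2 days) was measured on 1 array each. The scanner tables, as deposited, hold a spot intensity from which the authors had subtracted background in Agilent Feature Extraction 9.5, per the submitters' processing notes and the file headers. The deposited series table holds log2 values, found to be log2 of the same signal minus a constant per array within 0.00485, with column medians from -3.53 to -3.29. It served as an alternative; why its constants lie up to 0.0162 from the 75th percentile stays unknown.

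Each value is the log2 processed signal less that of the array's 75th percentile (516.3 to 1915.0 in intensity). The 536 control spots of 15744, and outlier spots (129 on the day 21 array of cow 2, 0 to 12 elsewhere), were left out; no spot was saturated. Between 56.8% and 74.9% of probes were well above background, and the number of arrays limits the precision. The SD of the negative controls was 10.47 on the day 7 array of cow 4 and 1.96 to 2.85 elsewhere.

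Symbols came from accessions and gene identifiers, then from gene names and descriptions, through a RefSeq table of ARS-UCD2.0, used for names only: 6254 probes were named and 8954 were not. Groups were compared unpaired with limma 3.58.1 in R 4.3.3 (lmFit, eBayes), with Benjamini-Hochberg adjustment over 10459 probes; the script was tested on simulated data. The source names give the same cow in both groups; over the 10307 tested probes with 8 values, deviations from the mean of each day correlated between a day 7 and a day 21 array at 0.172 to 0.752 for the same cow and at -0.474 to 0.302 for different cows, a measure apart from the member correlations in the report. With cow as a replicate block the members had a median change of 0.09, 0 calls and 2 at an unadjusted p under 0.05.

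Named members were the 6 of smallest p in each direction, the stalk and MDM2-binding proteins, RPS6, RPS3, RPSA, RPL13A, RPS27A, RPL10, RPS19, RPS4X and RPL22, symbols ending in L, members whose probes disagree, members near the filter, and the 2 genes of smallest p in the other lists; others named were chosen after their values were seen. RPL13A is not analysed here, and the values of 2 other genes that the rule names are not reported here. The members and lists were chosen with earlier results of these data known. Alternatives covered scaling, background, filter, blocks, weights, probe choice and left-out arrays.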

Additional observations from a re-analysis of the deposited data

Results flagged for a closer look

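In a group of 4 arrays, a value was picked out when its gap to the nearest other took up nearly the whole range of the group; chance picks about 1 in 20 groups, and 2 of the 52 groups checked were picked. RPS27 on day 7 was 3.14 in cow 1, with the other cows at 1.37 to 1.54. RPS27L on day 7 was 2.19 in cow 1, with the other cows at 1.26 to 1.37. Both lie on the day 7 array of cow 1, on which spots of identical sequence differed by a median of 0.56.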

How the results depend on the processing

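Across 25 planned settings, 0 members were called in 24, and 1 (RPS27) with array quality weights. The members at an unadjusted p under 0.05, 1 as reported, were 3 with array quality weights and 0 with slide as a fixed block or with the mean of all probes of a gene. Leaving out an array or a cow gave 0 to 3, and a median change of -0.15 to 0.36. In settings that kept 8 arrays the median was 0.03 to 0.26. With cow as a replicate block that count was 2, no call changed, and RPL22 was at 0.01, RPL5 at -0.08 and RPS19 at -0.18.

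Of 363 values of named members in settings that kept 8 arrays, 337 kept their sign and call. RPLP2 was at -0.01 with the array median as the scale, -0.15 with quantile normalization and with normexp before it, -0.12 with cyclic loess, -0.03 with slide as a fixed block and -0.02 as a random block. RPL10 was at -0.01 with both quantile settings. With slide as a fixed block RPL18 was at 0.01, RPL23 at 0.02, RPL24 at 0.06, RPS15A at 0.08, RPS19 at -0.02 and RPS3 at 0.11. With array weights RPL22 was at 0.59, RPL23 at 0.19, RPS19 at -0.21, RPS25 at 0.07, RPS28 at 0.17 and RPS3 at 0.18. Averaging probes put RPS10 at -0.03 and RPS15A at 0.03. The causes were not tested.

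Without the day 7 array of cow 1 and the day 21 array of cow 2, chosen after seeing the data, 2 members had an unadjusted p under 0.05, and RPL18 was at 0.24, RPL22 at 0.03, RPL23 at 0.23, RPL24 at 0.30, RPL3L at 0.06, RPS15A at 0.11, RPS25 at 0.10, RPS28 at 0.09 and RPS3 at 0.26.

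Leaving out 1 array or cow turned the sign in 50 of 336 values. The ranges were -0.09 to 0.56 for RPL10, -1.38 to 0.84 for RPL22, -0.46 to 0.06 for RPL23, -1.97 to 0.18 for RPL24, -0.14 to 0.86 for RPL30, -0.28 to 0.97 for RPL5, -0.10 to 1.08 for RPLP1 and -0.20 to 0.35 for RPLP2. They were -0.18 to 0.55 for RPS10, -0.57 to 0.36 for RPS15A, -0.45 to 0.39 for RPS19, -0.64 to 0.03 for RPS25, -0.15 to 0.68 for RPS27A, -0.08 to 0.41 for RPS27L, -0.82 to 0.25 for RPS3, -0.13 to 0.57 for RPS4X and -0.61 to 0.75 for RPSA.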

Other observations

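A further 8 probes carry a description like that of a ribosomal protein but no symbol here; 7 were tested, 3 of them above 0, with a median change of -0.02 and 0 at an unadjusted p under 0.05 in limma.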
